A study of Mus musculus with 2 samples.

Results

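The nuclear genes for subunits of the respiratory chain were examined in RNA of newborn mouse midbrain. Members were taken by symbol: names that start with Nduf followed by a, b, c, s or v and a digit, the genes Sdha to Sdhd, names that start with Uqcr, Cox4 to Cox8 or Atp5, with names marked -ps left out. This gave 88 of the 43346 mouse gene rows, 40 for complex I, 4 for complex II, 8 for complex III, 19 for complex IV and 17 for complex V. In GENCODE M21, 84 of them are protein coding, and Ndufb4c, Ndufs6b, Ndufa11b and Cox6c2 are processed pseudogenes, that is, copies of a spliced messenger RNA set into the genome. The symbols place Ndufa4 in complex I, although its protein is now known to sit with complex IV.

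The samples were 2 midbrains of mouse strain B6NCrl on postnatal day 0, from pup 1 and pup 3, with no genotype, agent or treatment named. Both midbrains form 1 group, so no condition was compared. A single donor record is named for both, sex was not collected, and only RNA of the size class over 200 was kept. The input to each SMART-type amplification was 13 pg of total RNA (1 cell-equivalent per the labels). The labels use the word single-cell for the assay, but the RNA came from whole tissue. The libraries held 26583225 and 33142647 expected counts, the estimated number of reads per gene, of which 376578 and 736200 fell on the members. A count of 0 allows up to 3 counts, or 0.113 CPM (counts scaled to the library total) in pup 1 and 0.0905 CPM in pup 3. All 6 neuronal markers, among them Tubb3 and Snap25, were detected in both pups, while of 7 midbrain markers Th alone was detected in both, at 46.9 and 38.5 TPM, and Foxa2 was listed at 0. TPM, the share of transcripts scaled to a fixed total, is a level per length, so levels of different genes can be set side by side. Longer genes still tended to have lower TPM here, as given below. Values are given for pup 1 and then pup 3, and means carry the SD over n = 2 pups.

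Oxidative phosphorylation moves electrons from NADH and succinate through complexes I and II to ubiquinone, then through complex III and cytochrome c to complex IV, where oxygen is reduced. Complexes I, III and IV pump protons across the inner mitochondrial membrane, and complex V, the ATP synthase, uses the gradient to make ATP. Most subunits are encoded in the nucleus and imported, while a few core subunits are encoded in the mitochondrial genome, and several subunits of complex IV exist as a widely expressed form and a form restricted to muscle, lung or testis. Neurons depend on this pathway for most of their ATP.

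Nearly all members were read in both midbrains. At a TPM of 1 or more, 79 of 88 (89.8%) were detected in both pups, beside 17% of all mouse gene rows and 31.8% of protein-coding genes. A mean TPM of at least 100 was reached by 73 of 88 members (83%), against 3.85% of all rows and 7.36% of protein-coding genes. Detected in 1 pup were Cox6a2 and Atp5s, in pup 1, and Ndufs6b, at 0.74 and 1.51 TPM. Detected in neither were Cox4i2, Cox7a1, Cox7b2, Cox8b and Cox8c, all with 0 counts in both libraries, and the copy Ndufa11b, with 1 count in pup 1. The members lie on 19 chromosomes, 9 of them on chromosome 7.

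Together the members held 33005 TPM in pup 1 and 50070 TPM in pup 3, a mean of 41537 ± 12067 (SD, n = 2), or 3.30% and 5.01% of all TPM. Pup 3 was the higher library for every complex, by 1.52-fold over the whole set. Complex I summed to 11899 and 18407 TPM, complex V to 8991 and 13264, and complex IV to 6878 and 12359. Complex III, with 3930.3 and 4361, and complex II, with 1307 and 1679, have fewer genes and lower sums. Per gene the order was different. Among members whose mean TPM was at least 100, called highly read here, the median level in pup 1 was 267 TPM for complex I, 294 for II, 595 for III, 529.9 for IV and 593 for V. In pup 3 the same medians were 458, 395, 544, 1243 and 730.4 TPM. Complexes III, IV and V thus had higher medians than I and II in both pups, while the order among III, IV and V changed between the pups. Within the set, levels had an SD of 0.89 on the log2 scale in pup 1 and 1.02 in pup 3, while the same gene had a root mean square SD of 0.61 between the pups.

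**Figure D1:**
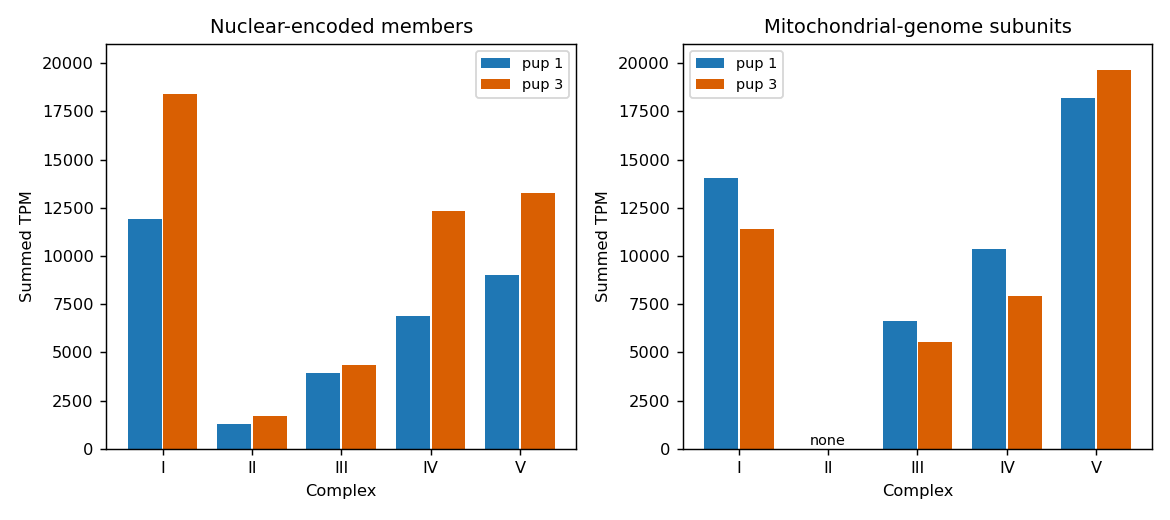
Summed TPM by complex for the nuclear-encoded members (left) and for the 13 subunits encoded in the mitochondrial genome (right), 1 bar per pup, both axes from 0. Nuclear sums are higher in pup 3 for every complex, whereas mitochondrial-genome sums are lower in pup 3 for complexes I, III and IV; complex II has no mitochondrial-genome subunit.

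Complex I has the most members. Its highest gene was Ndufa4, with 1251 and 1589 TPM (1420.1 ± 239). By mean level Ndufa1, a small membrane subunit needed for assembly, followed with 638 and 1148, then Ndufb8, an accessory subunit of the membrane arm, with 817 and 943, and the accessory subunit Ndufa3 with 585 and 1166. All 4 were higher in pup 3, Ndufb8 by the least.

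The subunits that carry out electron transfer in complex I had medians of 261 TPM in pup 1 and 288 TPM in pup 3. The medians of all highly read members of complex I were 267 and 458 TPM. By median, the electron transfer subunits were thus close to that level in pup 1 and lower in pup 3. The 7 core flavoprotein and iron-sulphur genes ranged from 124 to 348 TPM in pup 1 and from 69.2 to 721 TPM in pup 3, and 3 of the 7 were higher in pup 3. Ndufv1, which binds NADH, read 212 and 151 TPM. Ndufs1, the largest iron-sulphur subunit, read 124 and 69.2 TPM. Both were higher in pup 1. Ndufs7, which helps form the ubiquinone site, went the other way with 328 and 721 TPM, and so did the iron-sulphur subunit Ndufs8 with 182 and 322.

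The 12 Ndufb and Ndufc genes of the membrane arm had medians of 263 and 384 TPM, and 10 of 12 were higher in pup 3. Ndufc1, a small accessory subunit, read 375 and 1169 TPM, and Ndufb11, an X-linked subunit, 93.8 and 319. Ndufb9 and Ndufb5, also membrane-arm subunits, were the 2 exceptions in TPM, with 725 and 499 and with 251 and 212. On counts scaled by library totals, Ndufb9 stayed lower in pup 3, with a ratio of 0.77. Ndufb5 was higher there, with a ratio of 1.41. The deposited effective length of Ndufb5 was 706 bases in pup 1 and 1051 in pup 3. At the low end of complex I, besides the copies Ndufs6b and Ndufa11b, stood Ndufb4 with 27.8 and 83.4 TPM. Ndufa4l2, a relative of Ndufa4 known from hypoxia and from mural cells, read 13.3 and 35.7. The low place of Ndufb4 depends on how reads were divided with its copy Ndufb4c. The sum of Ndufb4 and Ndufb4c was 252 and 680.0 TPM.

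The 4 genes of complex II, succinate dehydrogenase, lay within a narrow range in pup 1, from 269.7 to 449 TPM. The iron-sulphur subunit Sdhb was highest in both pups, with 449 and 684 TPM. The membrane anchors Sdhd and Sdhc read 306 and 438 TPM and 269.7 and 352 TPM. Sdha, the flavoprotein that oxidises succinate, was alone in being lower in pup 3, with 283 and 205 TPM, and it was the lowest of the 4 there.

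In complex III, the cytochrome bc1 complex, small subunits had the highest mean levels. Uqcr11 read 664 and 839.9 TPM, Uqcr10 575 and 779.7, and Uqcrq, which lies next to cytochrome b, 616 and 651. Uqcrh, the hinge protein that helps cytochrome c1 meet cytochrome c, went against these with 686 and 459. The core protein Uqcrc1 was also higher in pup 1, with 666 and 461 TPM, whereas its partner Uqcrc2 read 181 and 273. Uqcrfs1, the Rieske iron-sulphur protein, was the lowest of the complex by mean, and the pups were further apart in ratio than for any other gene of the complex, with 106 and 270.2 TPM (188 ± 116).

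Complex IV, cytochrome c oxidase, held the clearest split within the set. The 10 widely expressed genes, Cox4i1, Cox5a, Cox5b, Cox6a1, Cox6b1, Cox6c, Cox7a2, Cox7b, Cox7c and Cox8a, ranged from 159 to 1295 TPM in pup 1 and from 446 to 1878 in pup 3. Their medians were 593 and 1264 TPM, and all 10 were higher in pup 3. Cox6a1, a regulatory subunit at the dimer interface, led with 1295 and 1878 TPM (1587 ± 412). Cox4i1, the largest nuclear subunit, read 1028 and 1715, Cox6b1, which faces the intermembrane space, 811 and 1719, and Cox8a, a small membrane subunit, 660.5 and 1445. Cox7a2 differed least between the pups, with 422 and 446 TPM.

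The 7 genes known as tissue-restricted forms of complex IV, Cox4i2, Cox6a2, Cox6b2, Cox7a1, Cox7b2, Cox8b and Cox8c, had a median of 0 TPM in each pup. Cox4i1 stood at 1028 and 1715 TPM while Cox4i2, the form known from lung, had 0 counts. With 3 counts allowed for a count of 0, Cox4i2 could make up at most 0.0284% and 0.0122% of the pair, so Cox4i1 was at least 3524-fold and 8217-fold higher. The forms of heart and skeletal muscle were at or near 0. Cox6a2 read 2.09 TPM (19 counts) in pup 1, 0.161% of its pair with Cox6a1, and 0 in pup 3. Cox7a1 had 0 counts beside Cox7a2, a share of at most 0.164% and 0.111%, and Cox8b had 0 counts beside Cox8a, a share of at most 0.106% and 0.0346%. The forms known from testis, Cox7b2 and Cox8c, also had 0 counts, with upper limits of 0.26% and 0.0387% of the pair with Cox7b for Cox7b2.

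Cox6b2, known as the testis form of the Cox6b subunit, was the exception among the restricted forms. Its level was 2.16 TPM (16 counts) in pup 1 and 88.4 TPM (738 counts) in pup 3, or 0.266% and 4.89% of the pair with Cox6b1. Pup 1 was thus near the bottom of the detected range and pup 3 well above it. In pup 3, 72.4% of the level came from the transcript ENSMUST00000184143.3, which had 0 counts in pup 1. The transcript read in pup 1, ENSMUST00000063324.9, stood at 2.16 and 23.3 TPM. The 7 testis germ cell markers, Prm1 and Ddx4 among them, were listed at 0 in both pups.

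Markers of tissues in which restricted forms are known to be used were measured beside these values. Of 10 heart and skeletal muscle markers, Acta1 alone was detected in both pups, the list summed to 27.1 and 35.0 TPM, and Myh6, Tnnt2 and Mb had 0 counts. None of the 4 brown fat markers was detected, and 3 of them had 0 counts. Of 8 pericyte and mural cell markers, the cells where Cox4i2 and Ndufa4l2 are known to be expressed, 4 were detected in both pups, and the list summed to 135 and 148 TPM. Rgs5 read 24.2 and 63.2 TPM, while Kcnj8, Abcc9 and Notch3 were at 0 in pup 3. Ndufa4l2 made up 1.05% and 2.20% of its pair with Ndufa4. Whether Ndufa4l2 follows the mural cells was not tested. In RNA of whole tissue, fewer cells of a type and less RNA per cell cannot be told apart.

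**Figure D2:**
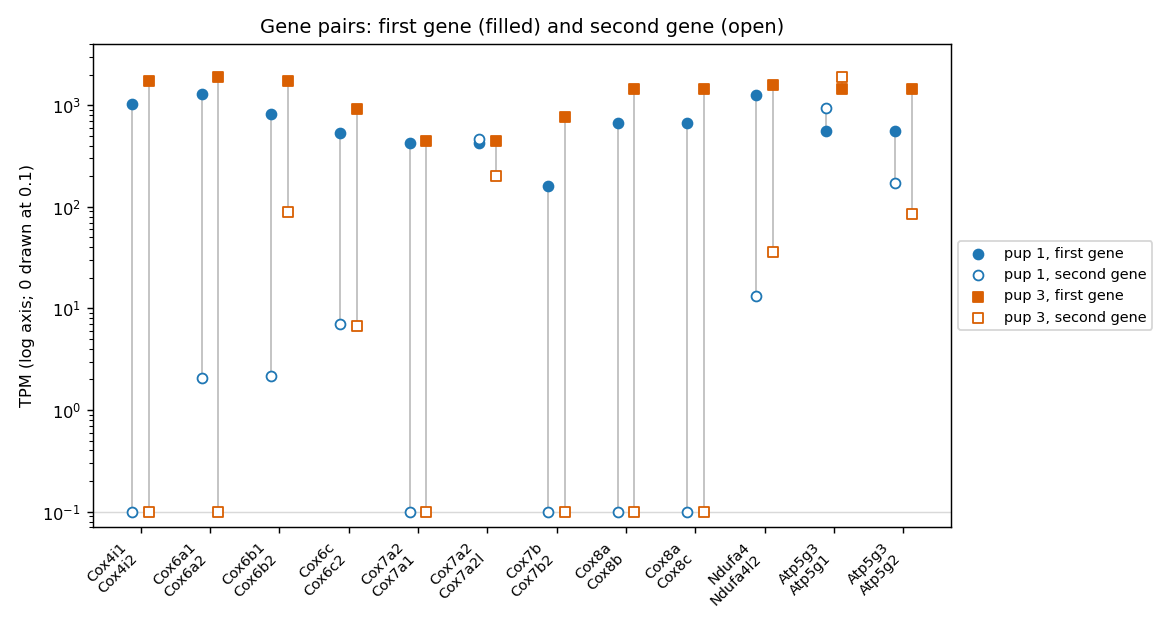
TPM of both genes of each pair on a log axis, first gene filled and second gene open, circles for pup 1 and squares for pup 3, with 0 drawn at 0.1 and a line joining the genes of a pair in 1 pup. Open symbols sit at 0 for Cox4i2, Cox7a1, Cox7b2, Cox8b and Cox8c in both pups, and Cox6b2 lies at 2.16 and 88.4 TPM.

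The promoters of Cox8a and Cox8b are shown as a widely expressed and a restricted form that differ in CpG content, the pair with the widest gap of the 4 compared. The 200 bases before the RefSeq start of each gene are printed here on the gene's strand (GRCm38.p6, the assembly also called mm10), with every CpG in capitals, since promoters of widely expressed genes are often rich in CpG. The first is chr19:7217617-7217816 on the minus strand, and the second chr7:140900447-140900646, also on the minus strand.
Cox8a: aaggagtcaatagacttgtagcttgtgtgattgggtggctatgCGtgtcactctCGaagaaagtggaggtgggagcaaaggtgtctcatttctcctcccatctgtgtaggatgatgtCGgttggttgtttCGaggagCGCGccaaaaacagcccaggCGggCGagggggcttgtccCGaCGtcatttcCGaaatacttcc
Cox8b: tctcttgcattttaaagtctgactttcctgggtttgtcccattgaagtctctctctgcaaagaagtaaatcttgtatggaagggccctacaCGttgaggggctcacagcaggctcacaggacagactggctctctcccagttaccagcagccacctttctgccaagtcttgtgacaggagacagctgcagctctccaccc
The window of Cox8a, at 660.5 and 1445 TPM, holds 11 CpG, and that of Cox8b, at 0 counts, holds 1. Over the longer windows of 300 bases, 250 before to 50 after the start, the median CpG count was 19 for highly read members and 10 for the 6 promoters of members under it. The median over all 32851 promoters of the table was 7, and over promoters of all highly read genes 21. In these windows Cox8a held 19 CpG and Cox8b 2, Cox7a2 20 and Cox7a1 7, and Cox6b1 17 and Cox6b2 10. Cox7b and Cox7b2 went the other way, with 5 and 10, so the widely expressed form did not have more CpG in every pair.

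A pair of further genes bear the name Cox7a2 or Cox6c without being tissue forms of the usual kind. Cox7a2l, described elsewhere as linking complexes III and IV into supercomplexes, read 464 and 203 TPM, or 52.4% and 31.2% of the sum with Cox7a2. Whether its protein does so in this strain was not examined. The deposited TPM bounds were 396 to 420.2 for Cox7a2 and 439 to 459 for Cox7a2l in pup 1, and 425 to 446 against 192 to 204 in pup 3, so the order of the genes turned between the pups. In pup 1 the deposited TPM of both genes lay above its own upper bound. Of the 11 highly read genes of complex IV, Cox7a2l was the only one lower in pup 3. The copy Cox6c2 read 7.05 and 6.76 TPM, 1.31% and 0.737% of its sum with Cox6c at 529.9 and 911.

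In complex V, the highest mean levels were those of Atp5g1, Atp5b, Atp5o and Atp5g3. Atp5b, the catalytic beta subunit, read 720.1 and 1937 TPM (1329 ± 860.5), and Atp5a1, the alpha subunit, 739.8 and 924. Atp5c1, the gamma subunit of the rotor, was alone among the 5 F1 genes in being lower in pup 3, with 692 and 456 TPM. Atp5b and Atp5a1, whose proteins alternate in the head in equal number, were within 1.03-fold of each other in pup 1 and 2.10-fold apart in pup 3. These gene levels include minor transcripts. The most abundant transcript alone read 607 TPM for Atp5b and 731 for Atp5a1 in pup 1. In pup 3 it read 1423 for Atp5b and 906 for Atp5a1.

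The c-ring of the ATP synthase is built from 1 mature protein that 3 genes encode. Atp5g1 read 931 and 1911 TPM, Atp5g3 554 and 1435, and Atp5g2 171 and 84.5. Atp5g1 supplied 56.2% and 55.7% of the 3-gene sum, Atp5g3 33.5% and 41.8%, and Atp5g2 10.3% and 2.46%. The order of the 3 genes was the same in both pups, and the share of Atp5g1 was nearly the same.

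The peripheral stalk, which holds the head still against rotation, was led by Atp5o with 1075 and 1087 TPM (1081 ± 8.15), a level that hardly differed between the pups. The other stalk genes, Atp5h, Atp5j and Atp5f1, read 724 and 869, 631 and 569.7, and 638 and 481. The small membrane subunits Atp5mpl, Atp5j2, Atp5k and Atp5l were all higher in pup 3. Atp5mpl read 461 and 1111 TPM and Atp5j2 291 and 723, whereas Atp5k (304 and 333) and Atp5l (214 and 238) were close. The level of Atp5l depends on how reads were divided with the processed pseudogene Gm10221, which shares sequence with it and read 762 and 1034 TPM. The lowest member of the complex was Atp5s, coupling factor B, with 18.1 TPM (409 counts) in pup 1 and 0 in pup 3.

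**Figure D3:**
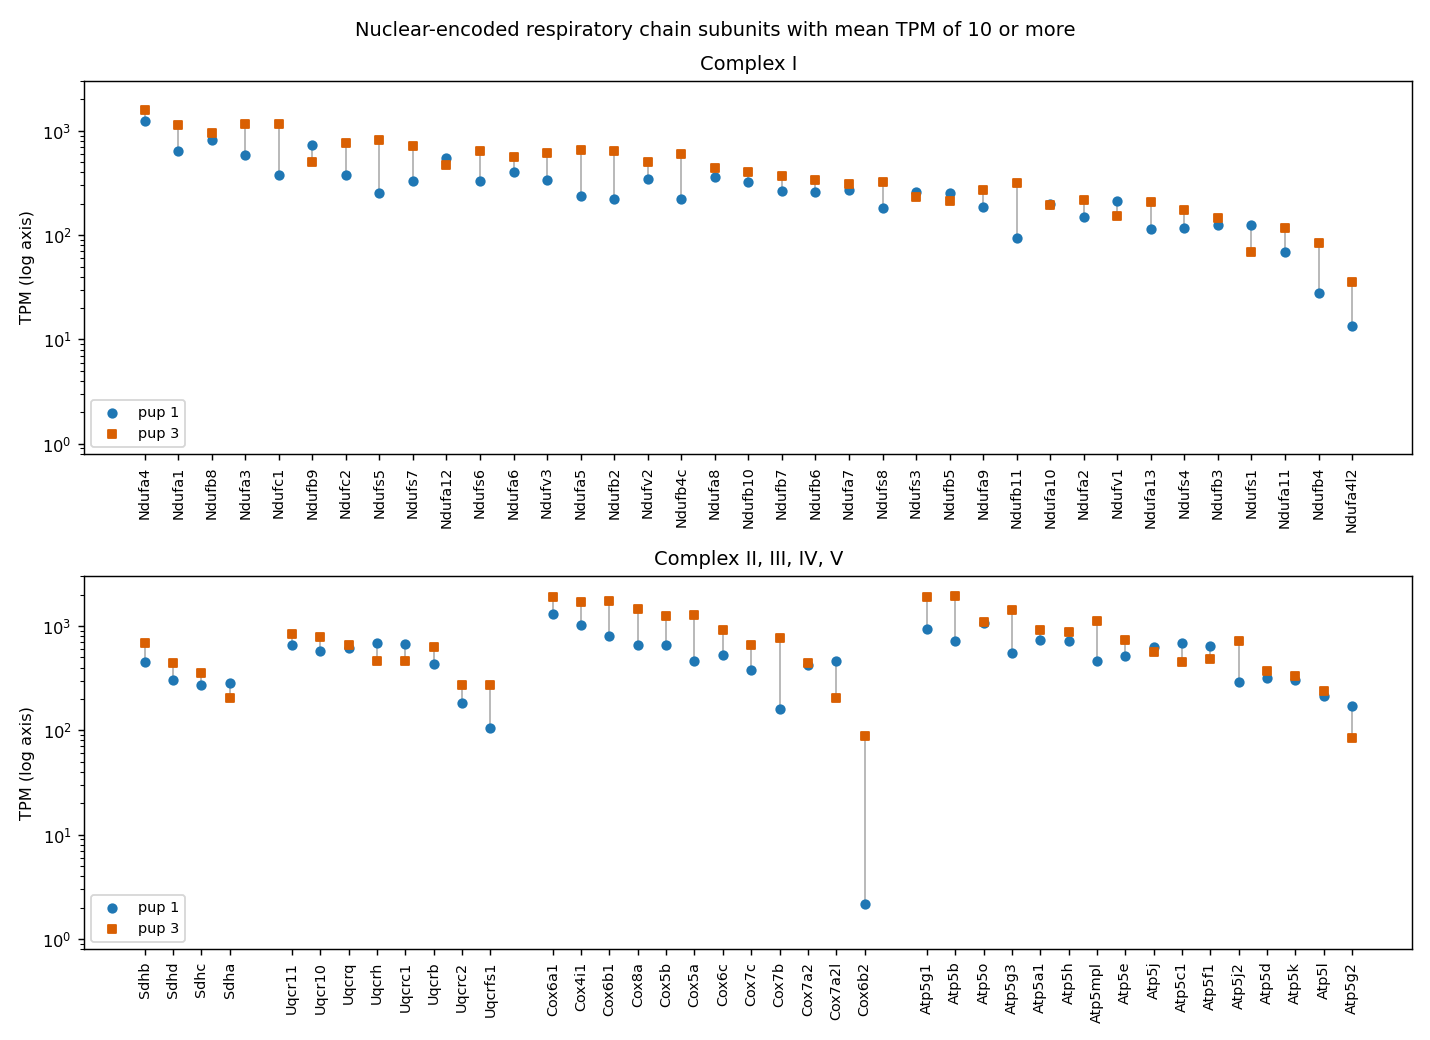
TPM on a log axis for members with a mean TPM of 10 or more, circles for pup 1 and squares for pup 3 joined by a line (1 member not drawn), complex I above and complexes II to V below, each complex ordered by mean TPM. Most squares lie above their circles, the gap is widest for Cox6b2, and Cox7a2l, Uqcrh, Atp5c1 and Atp5g2 are among those with the circle above.

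Some levels depend on how reads were divided between near-identical sequences. Over windows of 100 bases of annotated transcripts, all 291 windows of Ndufb4c also occur in Ndufb4, and Ndufb4c read 224 and 597 TPM beside 27.8 and 83.4 for Ndufb4. Their sum was 252 and 680.0 TPM, of which Ndufb4 held 11.05% and 12.3%. Over these windows, 16.0% of those of Ndufb4, reads of the gene and of its copy cannot be told apart. For Atp5g2, 34.7% of windows also occur in the pseudogene Gm10175, at 190.4 and 130.9 TPM, and for Cox6c2, 34.8% (46 windows) occur in Cox6c. The deposited posterior SD was 28.3% and 24.6% of the count for Cox6c2. It was 4.65% and 5.72% for Atp5g2, 5.33% and 4.39% for Atp5l, and 4.18% and 2.05% for Ndufb4. Overlapping genes also share windows: Ndufa13 with Tssk6, Ndufb6 with Smim27, Uqcrc2 with Pdzd9 and Ndufb5 with Mrpl47. The use of strand in counting is not given in the sources used here. Rows marked -ps were near 0: Atp5l2-ps had 3.20 and 8.07 counts, and the other 5, Uqcrh-ps1, Uqcrh-ps2, Atp5l-ps1, Atp5l-ps2 and Atp5k-ps2, had at most 2 counts each.

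Members mostly kept their leading transcript. The leader, the transcript with the largest share of TPM, was compared for 54 members with more than 1 transcript and at least 50 expected counts per library. It was unchanged between the pups in 53 of them (98.1%), beside 62.8% of 5311 such genes and 82% of the 1247 highly read ones. Cox6a1 kept ENSMUST00000040154.8 at 99.7% ± 0.0141 of its abundance, Cox4i1 kept ENSMUST00000034276.8 at 97.97% ± 0.184, and Atp5g1 kept ENSMUST00000107684.1 at 96.8% ± 3.17. Atp5b kept ENSMUST00000026459.5 with a lower share, 78.9% ± 7.68. In pup 3 its short transcript ENSMUST00000126751.1 took 24.1%, against 6.25% in pup 1. Among the 54 members, Ndufv1 was the gene that changed its leader: ENSMUST00000042497.9 held 31.5% and 34.6%, and ENSMUST00000134479.3 held 29.1% and 38.5%. The 2 transcripts were thus close in both pups. Cox6b2, whose leader also differed between the pups, had 16 counts in pup 1 and was not among the members compared.

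The libraries were then set against each other gene by gene, to see how far the levels of this set repeat between midbrains. By the size rule, in which the whole exact 95% interval of the count ratio lies beyond 4-fold, 4 of the 83 members with a count differed (4.82%), beside 41% of all genes with a count. Of the 73 highly read members, 1 differed and was higher in pup 3 (1.37%), beside 4.02% of all highly read genes, of which 2.1% were higher in pup 3 and 1.92% in pup 1. The rule compares 2 libraries and covers counting error only, since amplified reads are not independent molecules. Higher in pup 3 were Cox7b, an X-linked subunit of complex IV, and Cox6b2. Cox7b read 159 and 767 TPM (1296 and 10647 counts), a count ratio of 6.60 (exact 95% interval 6.23 to 6.997), and Cox6b2 had a ratio of 37.1 (22.7 to 65.2). Higher in pup 1 were Atp5s, at least 137-fold, and Cox6a2, at least 5.81-fold, both with 0 counts in pup 3.

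Smaller differences ran mostly 1 way. Of the 82 members with a TPM of 1 or more in a library, 63 were higher in pup 3 (76.8%), against 48.7% of all such genes. Of the 73 highly read members 58 were (79.5%), against 53.5% of all 1667 highly read genes. Beyond 2-fold, 21 of the 73 differed (28.8%), all higher in pup 3, beside 24.2% of all highly read genes, 16.2% higher in pup 3 and 7.98% in pup 1. Of the 83 members with a count, 26 (31.3%) differed over 2-fold, with 24 of these higher in pup 3 and 2 in pup 1, beside 55.2% of all genes with a count, 26% and 29.2% by direction. On the scale of log2(TPM + 1), the median difference of pup 3 over pup 1 was 0.53 for those 82 members and -0.07 for all 12144 such genes. For highly read members and genes the medians were 0.52 and 0.08. By complex, the median was 0.53 for complex I (27 of 34 higher in pup 3), 0.45 for II (3 of 4), 0.39 for III (6 of 8), 0.78 for IV (10 of 11) and 0.24 for V (12 of 16). All 5 medians were above that of all genes, with the largest in complex IV. On counts scaled by TMM or by DESeq2 size factors, the median of all genes moved to -0.15 and -0.16 and that of the members to 0.50 and 0.49. The members then lay 0.66 above all genes under either scaling, against 0.60 on TPM.

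**Figure D4:**
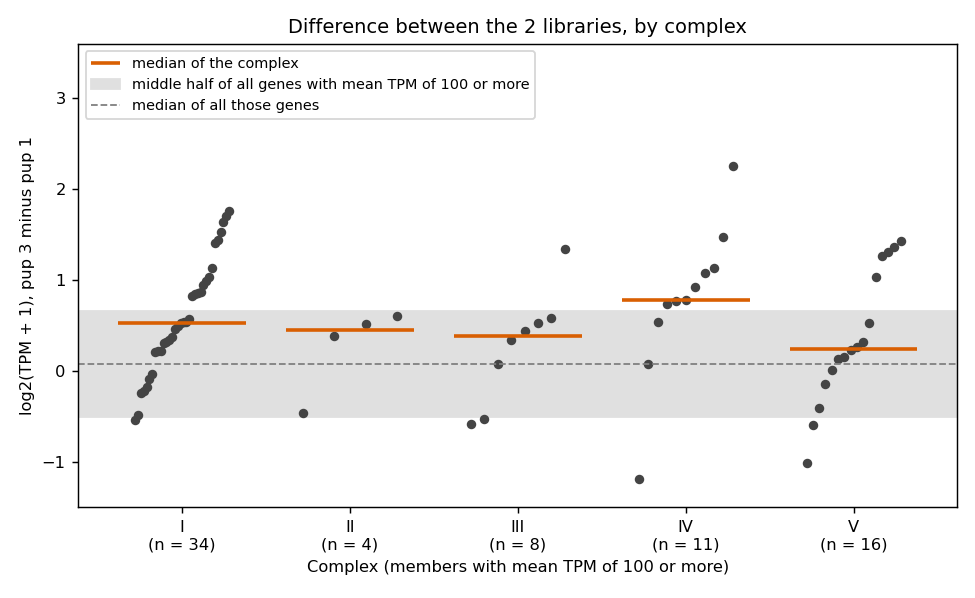
Difference of log2(TPM + 1), pup 3 minus pup 1, for the 73 members whose mean TPM was at least 100, 1 point per gene by complex, with the median of each complex as a bar. The grey band runs from the lower to the upper quartile of all genes at that level and the dashed line their median of 0.08; the medians of the complexes run from 0.24 for complex V to 0.78 for complex IV.

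Transcript length moved with these differences. Of the 31 members shorter than 600 bases, 28 were higher in pup 3, of the 26 from 600 to 1000 bases 21 were, and of the 16 of 1000 bases or more 9 were. Among all highly read genes, the shares higher in pup 3 were 67.9%, 67.6% and 47.4% in the same length classes, so short genes in general were more often higher there. The members' median differences were 0.54, 0.38 and 0.42 in these classes, against 0.32, 0.31 and -0.06 for all genes. Across the 73 members, log2 length and the difference had Pearson r = -0.32 and Spearman rho = -0.30, a description over genes of the same 2 libraries. Longer members also tended to have lower levels: log2 length and log2(mean TPM + 1) had r = -0.37 and rho = -0.40. Over all highly read genes these were -0.30 and -0.30. The part of length in the lean to pup 3, or in the order of levels within a complex, was not tested.

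The pups also differed in sex-linked genes and in blood markers. Xist, the RNA that silences an X chromosome, read 0 and 59.5 TPM, and the Y-linked Eif2s3y 67.4 and 0. The 3 X-linked members, Cox7b, Ndufb11 and Ndufa1, were all higher in pup 3, by 2.26, 1.76 and 0.85 on the log2 scale. For all 74 highly read X-linked genes the median difference was 0.26, with 63.5% higher in pup 3. The 70 highly read members that are not X-linked had a median of 0.51, with 55 of them higher in pup 3. Of 6 erythroid markers 4 were detected in both pups, and the list summed to 1703 and 2891 TPM, with Alas2 at 0 and 30.7. Neuronal markers summed to 10927 and 7656 TPM, a gap that Tubb3 makes (5927 and 1794). Stmn2, Snap25, Gap43 and Rbfox3, 4 of the 6, were higher in pup 3, with a median difference of 0.19 over the list. Of 5 radial glia and astrocyte markers 4 were detected in both pups, with a median difference of -0.83. Slc1a3 (213 and 101 TPM), Aldoc (470 and 312) and Aqp4 (38.6 and 14.6) were lower in pup 3. Fabp7, with 1385 and 2053 TPM, was higher there. The part of sex linkage and of these cell types in the lean to pup 3 was not tested. Across the 73 members, levels in pup 1 and pup 3 had Pearson r = 0.75 and Spearman rho = 0.74 on the log2 scale, beside 0.70 and 0.61 over all 1667 highly read genes.

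The subunits encoded in the mitochondrial genome did not show the lean to pup 3. All 13 were detected in both pups and summed to 49225 and 44485 TPM, a mean of 46855 ± 3352, and 10 of 13 were lower in pup 3. Their median difference was -0.21, against 0.53 for the nuclear members. Complex I subunits of the mitochondrial genome summed to 14027 and 11376 TPM, and those of complex IV to 10388 and 7909, whereas the nuclear members of complex IV summed to 6878 and 12359. The subunits of complex V were higher in pup 3, with 18180 and 19647 TPM, where mt-Atp6 read 8518 and 10070. Of complex IV, mt-Co3 read 1888 and 2276, also higher in pup 3. On counts scaled by library totals, 5 of 13 were higher in pup 3 and the median log2 difference was -0.05.

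Genes that work with the chain but fall outside the naming rule were also counted. Of 8 further subunits and electron carriers, 7 were detected in both pups. Ndufab1, the acyl carrier protein that is also part of complex I, read 513 and 466 TPM, Cyc1, the cytochrome c1 of complex III, 364 and 263, and Cycs, cytochrome c, 71.2 and 75.9. In TPM, cytochrome c itself was thus lower than most members of complexes III and IV that pass it electrons or take them from it. Its counts, which are not per length, were 3183 and 5226, within the range of the complex III members.

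A list of assembly factors, which build the complexes but are not part of them, was also counted, and it took in the inhibitor Atpif1. Of its 52 genes with a row, 35 were detected in both pups, 11 in pup 1 alone, 3 in pup 3 alone and 3 in neither. Their median level was 27.4 TPM, and 8 were highly read. Highest were Atpif1, the inhibitor of ATP synthase, with 1027 and 1284 TPM, and the assembly factors Uqcc2 (287 and 381), Coa3 (279 and 155) and Cox14 (153 and 269). The size rule listed 5 as higher in pup 3 and 13 as higher in pup 1, where 17.9% and 23.1% of all genes with a count were. Cox16, an assembly factor of complex IV, read 9.23 and 216 TPM, and Ecsit, of complex I, 114 and 0.06.

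Of 12 regulators of mitochondrial biogenesis, 2 were detected in both pups, 3 in pup 1 alone, 6 in pup 3 alone and 1, the coactivator Ppargc1a, in neither. Tfam, which packages the mitochondrial genome and takes part in its transcription, read 38.9 and 184 TPM. Gabpb1, a subunit of the ETS factor GABP, read 62.3 and 47.3, and Nrf1, a factor known to act on many respiratory genes, 0 and 39.0. The regulators were thus at lower levels than most members, and 10 of 12 were listed by the size rule, where 41% of all genes with a count were. Of these, 7 were higher in pup 3 and 3 in pup 1. Those higher in pup 1 were Tfb1m (23.0 and 0 TPM), the transcription factor Tfb2m (24.0 and 0.40) and the mitochondrial RNA polymerase Polrmt (27.4 and 0).

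Motifs of factors known for respiratory genes were looked for in the promoters. RefSeq promoters of GRCm38.p6 were matched for 66 of the 88 members (71 promoters), each 250 bases before to 50 after a start. Letters were searched on both strands, GCGCA, any base and GCGC in a row for NRF-1, CCGGAAG for ETS factors such as GABP, AAGATGGC for YY1 and GGGCGG for SP1. None of these letter strings contains another. Of the 65 promoters of highly read members, 24.6% held the NRF-1 letters, against 14.0% of promoters of all highly read genes and 4.6% of all 32851 promoters. Among the 6 promoters of less read members, 2 held them, those of Ndufb4 and Ndufa11 (69.4 and 116 TPM). The promoters of the restricted forms Cox6b2, Cox7a1, Cox7b2 and Cox8b did not. ETS letters were in 24.6%, beside 22.3% and 8.86%, and YY1 letters in 13.8%, beside 5.29% and 2.75%. SP1 letters were in 36.9% of the members' promoters, beside 62.5% of those of all highly read genes and 35.7% of all.

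A few stretches show what was matched. They lie before the start on the gene's strand (GRCm38.p6, all on the minus strand), with the matched letters in capitals. They come from chr5:115349051-115349090 for Cox6a1, chr11:115420036-115420075 for Atp5h and chr4:123718260-123718299 for Ndufs5, each with NRF-1 letters. Those from chr10:80406866-80406902 for Uqcr11 and chr2:174464182-174464218 for Atp5e hold ETS letters, the second on the opposite strand.
Cox6a1: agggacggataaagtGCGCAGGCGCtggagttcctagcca
Atp5h: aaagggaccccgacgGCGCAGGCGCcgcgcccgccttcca
Ndufs5: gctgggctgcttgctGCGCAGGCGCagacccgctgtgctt
Uqcr11: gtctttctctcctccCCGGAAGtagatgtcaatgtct
Atp5e: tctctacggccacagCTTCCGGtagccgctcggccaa
The 3 NRF-1 stretches share the same 10 letters. These genes do not share a level or a difference: Cox6a1 read 1295 and 1878 TPM, Atp5h 724 and 869, and Ndufs5, an accessory subunit of complex I, 252 and 820.4. A match is a description of letters, and binding was not measured.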

How the data were processed

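Total RNA of 2 midbrains (pups 1 and 3, 1 group) was measured. Per the labels, the assembly was mm10. The deposited file list names GENCODE release M4. For the aligner, the quantifier and the strand setting, nothing is given in the sources used here, though RSEM writes columns of these names. The deposited expected counts divide reads that match several genes and were rounded for counting intervals. The deposited TPM values are per length and scaled to a fixed total over all rows, spike-ins included. The deposited signal columns (posterior SD of counts and TPM interval bounds) and the deposited percent of each gene's abundance per transcript were used as given. 

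Symbols, biotypes and positions came from GENCODE M21 on GRCm38. Of 97 identifiers that match the rule with -ps names included, 3 had no row (Ndufb1-ps, Atp5c1-ps and a second Atp5o identifier), and 6 rows were -ps names. The partners Ndufb4b and Uqcrhl, and the assembly factor Coa1, were not analysed here.

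A gene was detected at a TPM of 1 or more. The size rule listed a gene as over 4-fold apart where its count ratio, scaled by totals over mouse genes, had an exact 95% interval (Clopper-Pearson) wholly beyond 4-fold. With a 0, the bound nearer to 1 is given. Shares at 0 were limited with 3 counts per library. With 2 pups of 1 group no test between groups was possible and no p-value is given. Any member could be named, but some genes that the rules select are left out of the text and of the plot of levels. Other lists gave up to 4 genes by level and genes over 4-fold apart. Members and lists were chosen with earlier results of these data known, and the level of 100 TPM, the length classes, motifs, X-linked genes and stretches were chosen after seeing the data. Windows of 100 bases follow the 99 bases by which length exceeds effective length.

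Alternatives were other thresholds, posterior means, annotated lengths, TMM and DESeq2 size factors, and single pups. Python 3.11.15, numpy 2.4.6, scipy 1.17.1, pandas 2.3.3 and matplotlib 3.10.9 were used, with R 4.3.3, edgeR 4.0.16 and DESeq2 1.42.0 for scaling factors. Simulated counts served to test the size rule.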

Additional observations from a re-analysis of the deposited data

How the results depend on the processing

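Leaving single pups aside, 68 values under alternatives stayed within the spread reported. That spread was 1 SD of the pups for sums and shares, the limit of 3 counts for shares at 0, 1.5 times for counts of members and the order interval for the median difference. With posterior mean TPM, the shares at 0 read 0.0137% for Cox4i2, 0.0453% for Cox7a1, 0.0487% for Cox7b2, 0.0237% for Cox8b and 0.0164% for Cox8c. A further 5 values moved, and none of these 5 turned direction. With annotated in place of effective length, complex III summed to 3811 TPM. Members over 4-fold apart numbered 26 with a limit of 2-fold and 2 at a mean TPM of 20 or more (Cox7b and Cox6b2), and 4 with TMM, DESeq2 size factors, posterior mean counts or without the 4 processed pseudogenes. From expected counts, which are not per length, Cox6c2 held 0.324% and Ndufa4l2 3.49% of their pairs. Cox7a2l held a mean of 51.3% of its sum with Cox7a2 by expected counts, against 41.8% on TPM. That lay within 1 SD of the pups, but the larger gene of the 2 changed. With 1 pup alone, members detected numbered 81 in pup 1 and 80 in pup 3. A single pup of 2 always lies within 1 SD of the mean, so it says nothing about stability: the share was 0.266% and 4.89% for Cox6b2, 23.6% and 5.56% for Atp5g2, 0.161% and 0% for Cox6a2, and 1.05% and 2.20% for Ndufa4l2 in pup 1 and pup 3. Members with an unchanged leading transcript numbered 52 by counts and 53 at 200 counts. Without the 4 pseudogenes, an alternative added after seeing the data, 77 members were detected in both pups. No paired analysis was possible because both libraries belong to 1 group. With 13 pg of RNA per library, a member at 0 may have been present below 3 counts, and how many molecules a low level stands for is unknown.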

Other observations

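Several copies of members that the naming rule does not take had high levels. Gm10221, a processed pseudogene that shares 210 windows of 100 bases with Atp5l, read 762 TPM in pup 1 and 1034 in pup 3, above Atp5l itself at 214 and 238. Gm12338, a processed pseudogene that shares 93 windows with Cox7c, a small subunit of complex IV, read 191 and 583 TPM beside 381 and 652 for Cox7c. The sum of both was 572 and 1235 TPM, of which Cox7c held 66.6% and 52.8%. Gm10039, which shares 285 windows with Atp5g1, read 82.8 and 415 TPM, or 8.17% and 17.8% of the sum with Atp5g1. In each of these cases the copy was higher in pup 3, as was the parent gene. Gm10175, which shares windows with Atp5g2, was lower in pup 3, as was Atp5g2. How much of each copy's level belongs to the parent gene was not tested.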
